A study of Mus musculus with 4 samples.

Results

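The Hox genes are the 39 mouse protein-coding genes of the Hoxa, Hoxb, Hoxc and Hoxd clusters, and peaks of an antibody-targeted nuclease were described here in and around them. Members were every RefSeq protein-coding gene of the mm10 assembly (GRCm38.p6) named Hoxa, Hoxb, Hoxc or Hoxd with a number, which gave 39 of 21631 protein-coding genes. There were 11 Hoxa genes on chromosome 6, 10 Hoxb genes on chromosome 11, 9 Hoxc genes on chromosome 15 and 9 Hoxd genes on chromosome 2. A member was called in a library when the summit of at least 1 peak lay inside it or within 5 kb of it.

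Hox genes encode homeodomain transcription factors that give positional identity along the body axis of the embryo. Within a cluster, low-numbered (anterior) genes are used towards the head and high-numbered (posterior) genes towards the tail, and Polycomb and Trithorax complexes hold the inactive and active states of the clusters. Hoxa3 acts in the pharyngeal pouch endoderm and neural crest from which the thymus arises, and mice without it form no thymus.

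Medullary thymic epithelial cells present self-antigens to developing T cells. The mTEChi group had 2 libraries and the mTEClo group had 2 libraries, all of thymic cells labelled Trp53-WT, with no other allele or treatment named. In common usage, mTEChi cells are the mature cells with much surface MHC class II, many of which express the antigen regulator Aire, and mTEClo cells carry less of it. Thymi came from mice aged 4 to 5 weeks, EpCAM+ cells were enriched on beads and sorted, and 500000 cells entered each CUT&RUN reaction, in which protein A-MNase cuts chromatin around a bound antibody. The sample titles name p53 as the target, whereas the protocol text names BAF155, a subunit of the BAF chromatin remodeller, and which of them the peaks mark cannot be told from the labels. "Anti-p53" is therefore a name only. The labels do not say whether the libraries of a group came from separate mice, so p-values measure only how far these libraries vary, possibly for technical reasons.

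The 2 mTEChi lists held 73510 and 85308 peaks and the 2 mTEClo lists held 89809 and 69359 peaks. Peaks lay near all 5 mature mTEC markers in each library, and near 6, 7, 6 and 7 of 7 thymic epithelial markers in mTEChi replicates 1 and 2 and mTEClo replicates 1 and 2. They also lay near 3 and 5 of 6 thymocyte markers in mTEChi and 5 and 6 in mTEClo, and near 4 and 4 of 5 fibroblast markers in mTEChi and 3 and 3 in mTEClo. These shares are read against 69.3% and 73% of all protein-coding genes called by the same rule in mTEChi, and 75.5% and 68.8% in mTEClo, so most of them lie near the background and say little of cell identity. No summit fell in a matched promoter window of 5 thymocyte, 2 fibroblast or 2 immature mTEC markers in any library. All 4 matched mature mTEC markers and 5 of 7 thymic epithelial markers had one in at least 1 library. Of all protein-coding promoter windows, 38.2% did. The marker lists are short, and no test was made of these counts. Of 4 immature mTEC markers, 3 had a peak nearby in each library, near the background share of genes called. The other, Ccl21a, had no peak nearby in any library. A peak near a gene is not expression, and the part of other cells in the Hox values was not tested.

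Promoter sequence of 5 members is shown because no summit lay in any Hox promoter window examined, in any library. Each line gives the 250 bases before a RefSeq transcript start (GRCm38.p6), on the strand of the gene, and capitals mark a match to the 10-letter p53 half-site. Hoxa3 is shown for its place in thymus formation, Hoxa10 because a peak interval reached its window, and Hoxa11, Hoxd4 and Hoxd10 because they hold the match. These sequences were chosen after the values were seen.
Hoxa3, chr6:52213068-52213317, minus strand: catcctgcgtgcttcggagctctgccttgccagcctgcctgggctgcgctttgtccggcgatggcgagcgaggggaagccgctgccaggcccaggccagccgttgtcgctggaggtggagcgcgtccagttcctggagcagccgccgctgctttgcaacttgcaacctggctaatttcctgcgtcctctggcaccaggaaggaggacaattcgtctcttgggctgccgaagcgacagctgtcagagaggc
Hoxa10, chr6:52240855-52241104, minus strand: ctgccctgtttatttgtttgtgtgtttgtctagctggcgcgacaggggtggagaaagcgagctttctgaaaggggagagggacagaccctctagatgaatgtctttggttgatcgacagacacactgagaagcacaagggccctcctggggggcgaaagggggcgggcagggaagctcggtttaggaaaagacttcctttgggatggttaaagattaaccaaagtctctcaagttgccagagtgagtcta
Hoxa11, chr6:52245811-52246060, minus strand: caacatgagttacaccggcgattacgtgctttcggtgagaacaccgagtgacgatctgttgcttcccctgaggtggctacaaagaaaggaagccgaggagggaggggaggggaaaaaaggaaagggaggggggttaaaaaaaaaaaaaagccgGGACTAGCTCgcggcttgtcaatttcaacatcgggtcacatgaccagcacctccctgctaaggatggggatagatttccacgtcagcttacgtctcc
Hoxd4, chr2:74721728-74721977, plus strand: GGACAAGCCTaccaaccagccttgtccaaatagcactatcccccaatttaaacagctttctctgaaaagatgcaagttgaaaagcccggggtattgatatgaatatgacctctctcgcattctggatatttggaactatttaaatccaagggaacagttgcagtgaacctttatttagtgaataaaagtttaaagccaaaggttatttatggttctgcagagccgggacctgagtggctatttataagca
Hoxd10, chr2:74691641-74691890, plus strand: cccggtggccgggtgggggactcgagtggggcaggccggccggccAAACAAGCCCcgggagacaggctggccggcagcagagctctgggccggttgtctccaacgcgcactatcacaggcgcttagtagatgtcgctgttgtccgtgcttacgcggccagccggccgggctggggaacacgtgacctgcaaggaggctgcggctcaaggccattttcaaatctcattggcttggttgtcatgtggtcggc

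Peaks around the Hox genes were fewer in both mTEChi libraries than in either mTEClo library. mTEChi replicates 1 and 2 had 18 and 20 Hox peaks, against 32 and 26 in mTEClo replicates 1 and 2. Set against the length of each list, this was 2.45 and 2.34 peaks per 10000 listed in mTEChi, against 3.56 and 3.75 in mTEClo. The groups did not overlap. The mean was 2.40 ± 0.0737 per 10000 in mTEChi and 3.66 ± 0.131 in mTEClo (SD, n = 2 each), a difference of -1.26 and a ratio of 0.656 (two-sided exact permutation test, p = 0.333). That p is the smallest that 2 libraries against 2 can give, so no comparison of values per library here can pass 0.05. The lists themselves overlapped in length. In sorted bulk cells, fewer cells with a site and less signal per cell cannot be told apart.

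The Hox windows held more peaks per length than the average gene window in mTEClo, and about as many in mTEChi. After merging overlaps, the member windows covered 451.893 kb and held 3.98 and 4.43 peaks per 100 kb in mTEChi, against 7.08 and 5.75 in mTEClo. All protein-coding gene windows held 3.71 and 4.31 per 100 kb in mTEChi, against 4.64 and 3.54 in mTEClo. The clusters differed in mTEClo, with 14.2 and 9.78 per 100 kb in Hoxa windows and 6.81 and 5.96 in Hoxb windows. Hoxc windows held 4.18 and 2.51 and Hoxd windows 2.94 and 4.89. Hoxc thus lay below the average gene window in both mTEClo libraries, and Hoxd in mTEClo replicate 1. The 250 kb on each side of the 4 clusters held 2.60 and 4.55 per 100 kb in mTEChi, against 3.80 and 3.0 in mTEClo. Other tandem gene arrays had lower densities. The 55 clustered protocadherin genes, which encode neuronal adhesion proteins, held 2.12 and 3.33 in mTEChi, against 3.48 and 2.12 in mTEClo, and 287 olfactory receptor genes of chromosome 2 held 1.51 and 1.35, against 0.910 and 1.38.

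Hox peaks were mostly of middling strength within their lists. Their scores, which are the authors' and are read here as −log10 of a p- or q-value, had medians of 3.19 and 3.34 in mTEChi, against 4.56 and 4.27 in mTEClo. The medians of the whole lists were 3.62 and 3.34 in mTEChi, against 4.12 and 3.94 in mTEClo. Expressed as a percentile of its own list, the median Hox peak stood at 33.0 and 42.2 in mTEChi, against 55.3 and 61.4 in mTEClo. Of 96 Hox peaks in all, 5 were among the 10000 highest scores of their list. The strongest by rank was at place 1511, in mTEClo replicate 2, near Hoxb1, a hindbrain-patterning gene, with a score of 9.65.

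**Figure D1:**
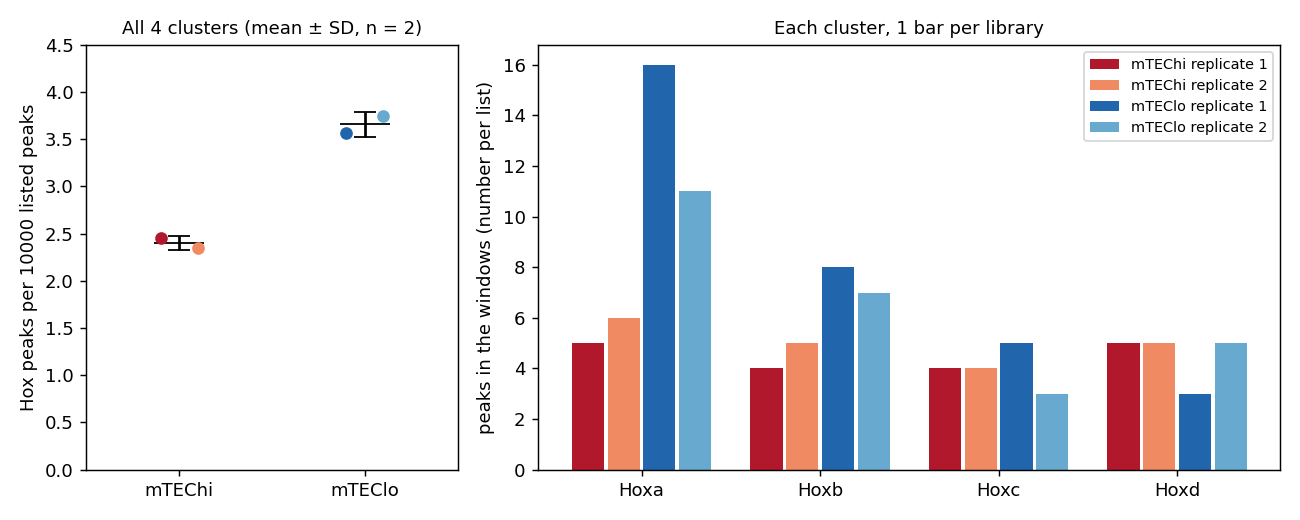
Peaks inside or within 5 kb of Hox genes in each library, as described in the axis titles, with mTEChi libraries left of mTEClo libraries. The mTEChi libraries had 2.45 and 2.34 Hox peaks per 10000 listed, below the 3.56 and 3.75 of mTEClo.

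Most of the difference in number lay in the Hoxa cluster. Hoxa windows held 5 and 6 peaks in mTEChi, against 16 and 11 in mTEClo (exact permutation p = 0.333). Hoxb windows held 4 and 5 in mTEChi, against 8 and 7 in mTEClo (exact permutation p = 0.333). The groups did not overlap in these clusters. Hoxc windows held 4 and 4 peaks in mTEChi, against 5 and 3 in mTEClo, and Hoxd windows 5 and 5, against 3 and 5 (exact permutation p = 1 for each). Without Hoxa, a choice made after seeing the data, the remaining members averaged 1.71 peaks per 10000 in mTEChi and 1.97 in mTEClo, a difference of -0.267.

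Along the Hoxa span the density was 4.33 and 6.06 peaks per 100 kb in mTEChi, against 13.9 and 9.52 in mTEClo. Its flanks held 3.20 and 2.80 per 100 kb in mTEChi, against 2.40 and 2.2 in mTEClo, so the order of the groups in the flanks was the opposite of that in the cluster. Each cluster also had long stretches with no summit in any library. The longest was 11926 bases in Hoxa, across Hoxa10, 30949 bases in Hoxb, between Hoxb13 and Hoxb9, 16672 bases in Hoxc, across Hoxc5, and 21372 bases in Hoxd, across Hoxd8 and Hoxd9.

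**Figure D2:**
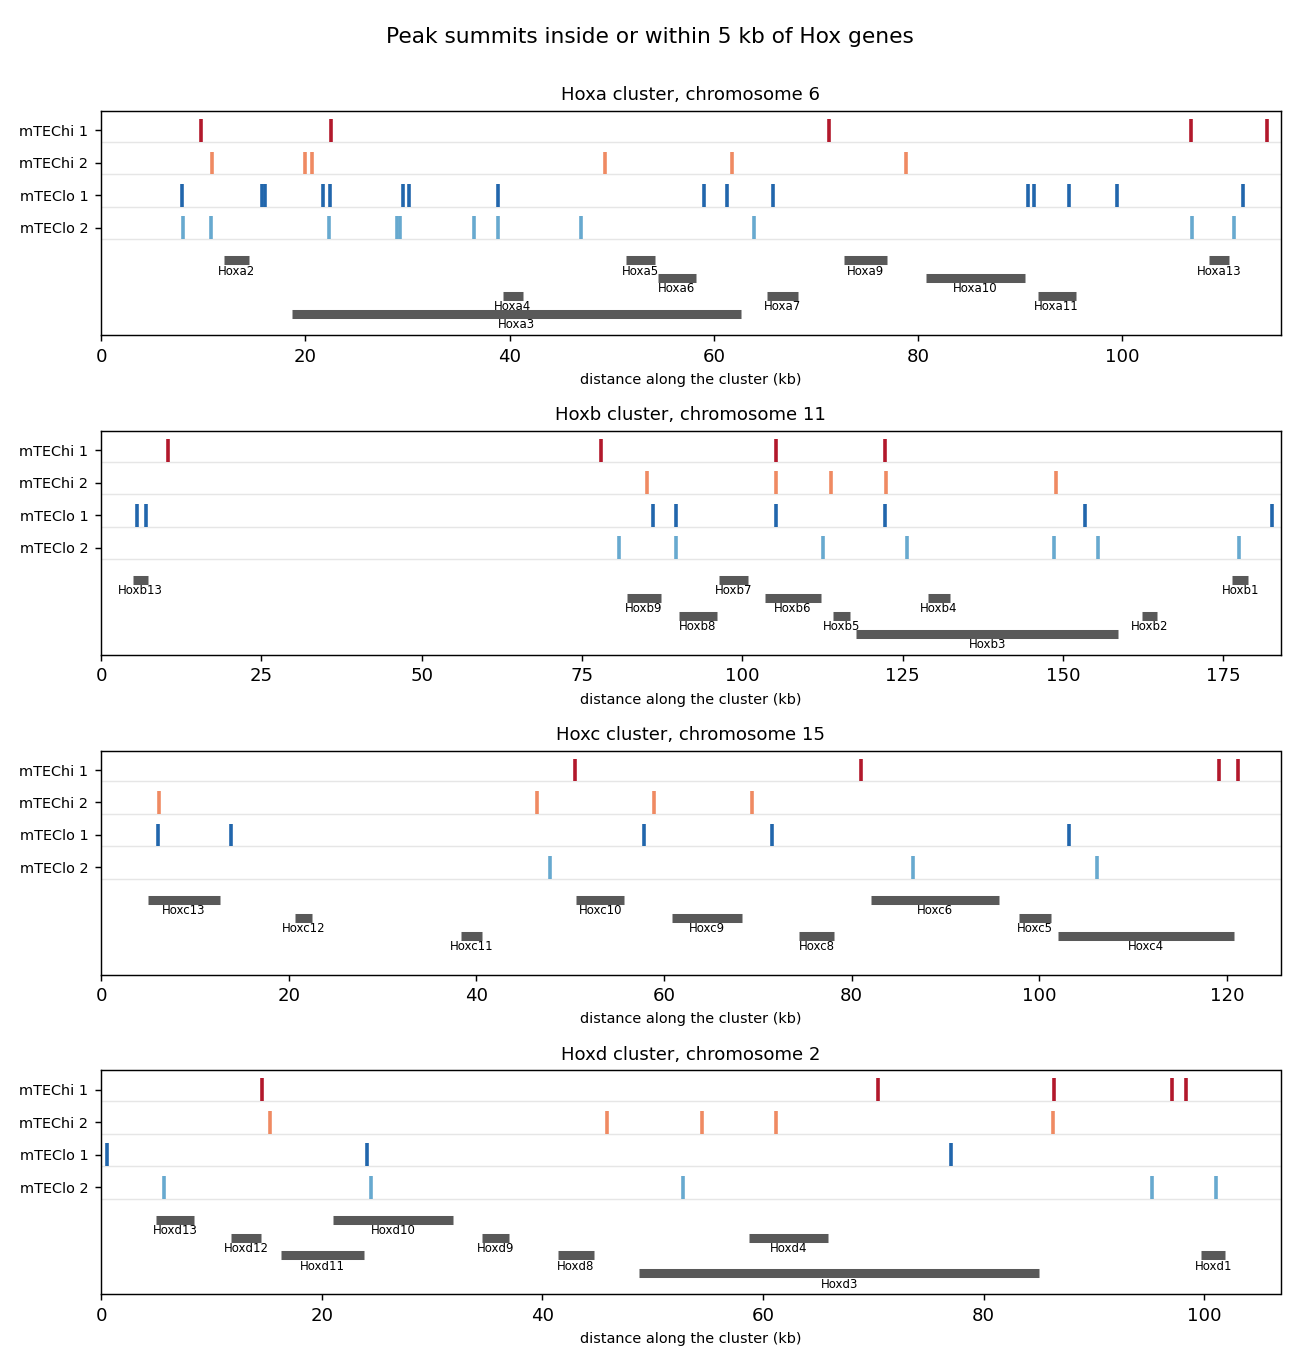
Position of each peak summit (ticks, 1 row per library, mTEChi above mTEClo) and of the genes shown (bars) along the 4 Hox clusters, in kb. Only summits inside or within 5 kb of a Hox gene are drawn, so the gap between Hoxb13 and Hoxb9 is partly outside the windows. The Hoxa panel has 5 and 6 ticks in the mTEChi rows, against 16 and 11 in the mTEClo rows.

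Counted by gene, the Hox members were called less often than protein-coding genes as a whole. The mTEChi libraries called 20 and 21 of 39 members (51.3% and 53.9%), and the mTEClo libraries called 27 and 23 (69.2% and 59.0%). The background was 69.3% and 73% of all protein-coding genes in mTEChi, against 75.5% and 68.8% in mTEClo. The lists hold few peaks on chromosome X, and among the 20665 autosomal genes the background was 71.3% and 74.9% in mTEChi, against 78% and 71.4% in mTEClo. Hox genes are short, with a median length of 3737 bases against 17329 for all protein-coding genes, and the part of length in these shares was not tested. In Hoxa, 6 and 8 of 11 members were called in mTEChi, against 10 and 7 in mTEClo, and in Hoxb 5 and 5 of 10, against 7 and 7. In Hoxc, 4 and 3 of 9 members were called in mTEChi, against 6 and 4 in mTEClo, and in Hoxd 5 and 5 of 9, against 4 and 5.

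By position along the clusters, anterior genes (numbers 1 to 4) held 9 and 12 peaks in mTEChi, against 16 and 17 in mTEClo. Middle genes (5 to 8) held 3 and 5 in mTEChi, against 8 and 6 in mTEClo. Posterior genes (9 to 13) held 7 and 7 in mTEChi, against 15 and 7 in mTEClo, so that the groups met in that class alone. A peak near members of 2 classes was counted in each. Of 12 anterior members, 8 and 6 were called in mTEChi, against 8 and 10 in mTEClo. Of 11 middle members, 5 and 7 were called in mTEChi, against 8 and 7 in mTEClo, and of 16 posterior members 7 and 8, against 11 and 6. No class was called throughout or left out throughout.

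Over the 4 libraries, Hoxa3 held the most peaks of any member. It had 1 and 4 peaks in mTEChi, against 10 and 7 in mTEClo, and no test was made of this gene alone. Its RefSeq interval (chromosome 6, 52169059 to 52213067) is 44009 bases long, the longest of the family, and also contains Hoxa4, Hoxa5 and Hoxa6, so some of these peaks count for those genes too. Hoxa4, which patterns the neck and upper trunk skeleton, had 0 and 0 peaks in mTEChi, against 1 and 2 in mTEClo. The paralog Hoxb3 (chromosome 11, 96307101 to 96347930) had 1 and 3 peaks in mTEChi, against 2 and 3 in mTEClo. Hoxd3 (chromosome 2, 74711993 to 74748271) had 2 and 4 in mTEChi, against 1 and 1 in mTEClo, the opposite order to Hoxa3. In mice these paralogs of group 3 act with Hoxa3 in forming pharyngeal organs.

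Members called in both mTEChi libraries numbered 14, against a background of 61.2% (63.3% of autosomal genes), and those called in both mTEClo libraries 19, against 63.1% (65.6% of autosomal genes). The members called in all 4 libraries were 10 of 39 (25.6%, against a background of 51.9% of all and 54.1% of autosomal genes). Among them were Hoxa2, Hoxa3, Hoxa7, Hoxb3, Hoxb6, Hoxb9, Hoxc10, Hoxd3 and Hoxd11. Hoxa2 patterns the hindbrain, Hoxb6 and Hoxb9 the trunk, and Hoxc10 and Hoxd11 the hindlimb and forearm regions. These 10 had a median length of 6362.5 bases, against 3379 for the other 29. Hoxa2 had 1 and 1 peaks in mTEChi, against 3 and 2 in mTEClo, while Hoxd11 had 1 peak in each library. The Hoxd11 peaks also counted for Hoxd12 in mTEChi and for Hoxd10 in mTEClo. Of the 96 Hox peaks, 45 counted for 2 or more members, so calls of neighbouring members are not independent.

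Some members were called in both lists of 1 cell state and in none of the other. Hoxa9, Hoxd4 and Hoxd12 were called in both mTEChi lists but in no mTEClo list, 3 of 39 members (7.69%) against a background of 1.67% (1.53% of autosomal genes). Hoxd4, a hindbrain and neck gene, had 1 and 2 peaks in mTEChi, with best scores of 5.07 and 4.88, against none in mTEClo. Hoxa9, which acts in blood progenitors and the limb, and Hoxd12, a limb gene, had 1 peak in each mTEChi library, against none in mTEClo, with best scores from 2.38 to 3.83. Hoxa4, Hoxb1, Hoxb8, Hoxc5, Hoxd10 and Hoxd13 were called in both mTEClo lists but in no mTEChi list, 6 of 39 members (15.4%) against a background of 2.14% (2.22% of autosomal genes). With windows of 10 kb these counts were 0 and 3, and with each peak counted for its nearest member alone 2 and 4. No test was made of them, and the part of gene length in these shares was not tested. A call in both lists of a state need not be a shared site. The best summits of Hoxd13 in mTEClo replicates 1 and 2 were at 74663720 and 74668900, while those of Hoxb8 were at 96278974 and 96278987. Those of Hoxa9 in mTEChi replicates 1 and 2 were at 52221692 and 52229179. With windows of 1 kb, Hoxc5 was called in 0 libraries. Hoxb8, a trunk gene, had 0 and 0 peaks in mTEChi, against 2 and 1 in mTEClo, with best scores of 8.63 and 4.93 in mTEClo. Hoxd13, which forms the digits, had 0 and 0 in mTEChi, against 1 and 1 in mTEClo, with best scores of 4.37 and 5.46. Hoxb2, Hoxc11, Hoxc12 and Hoxd9 were called in no library, 4 of 39 members (10.3%), which is near the background of 12.8% of all genes and 10.9% of autosomal genes. Hoxa11, which acts in the forelimb and uterus, had 4 peaks in mTEClo replicate 1 and none in the other 3 libraries.

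**Figure D3:**
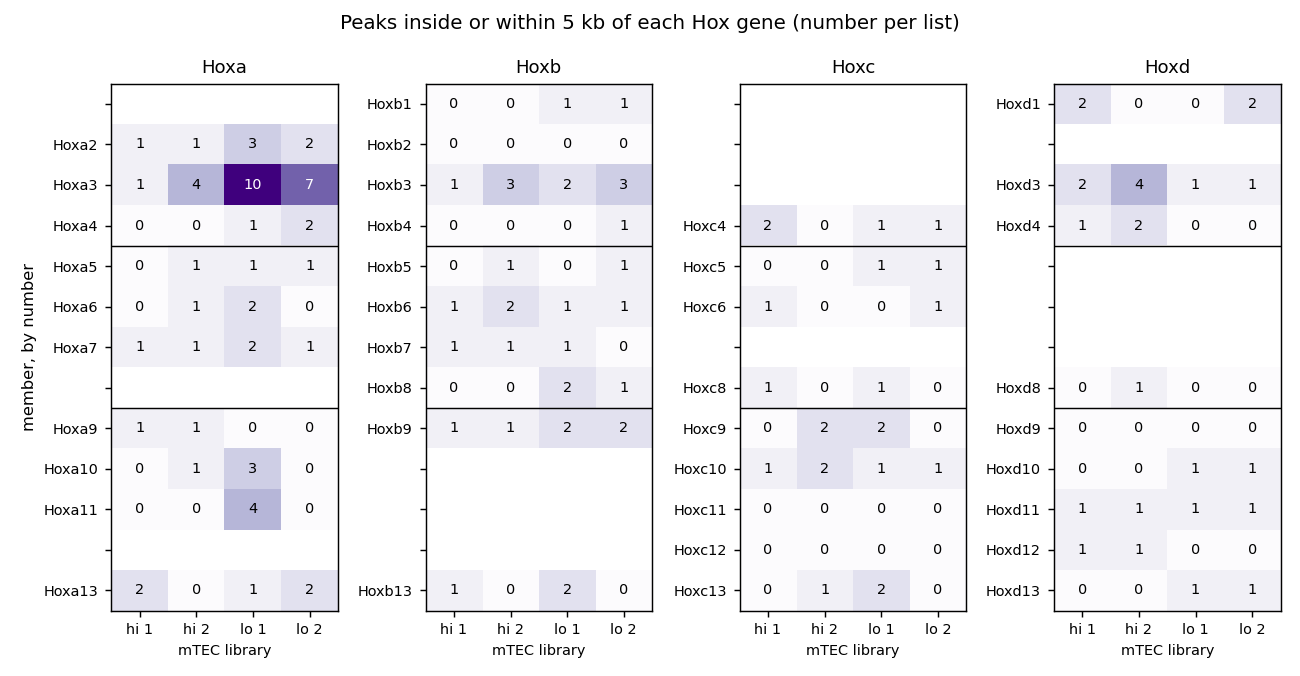
Number of peak summits inside or within 5 kb of each Hox gene shown (rows by cluster, columns by library, mTEChi left of mTEClo, blank where no gene is shown). The row of Hoxa3 reads 1, 4, 10 and 7, and those of Hoxb2, Hoxc11, Hoxc12 and Hoxd9 read 0 in every column.

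Libraries seldom shared a Hox site, as elsewhere in the lists. Overlapping intervals of the 4 lists merged into 81 regions in the Hox windows, of which 69 (85.2%) came from 1 library, 9 from 2, 3 from 3 and 0 from all 4. Among all 259773 merged regions, 85.4% came from 1 library, 9.67% from 2, 2.98% from 3 and 1.99% from all 4. The 3 regions in 3 libraries lay in Hoxb3, Hoxb6 and Hoxa3. The Hoxb3 region (chromosome 11, 96311397 to 96311943) had scores of 4.08 and 3.83 in mTEChi and 5.43 in mTEClo replicate 1. The Hoxb6 region (chromosome 11, 96294411 to 96294780) had 6.13 and 2.04 in mTEChi and 5.12 in mTEClo replicate 1. The Hoxa3 region (chromosome 6, 52172483 to 52172990) had 2.77 in mTEChi replicate 1, against 4.99 and 4.65 in mTEClo. All 3 lay inside the gene interval.

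Of the 81 Hox regions, those held by both libraries of 1 state and neither of the other numbered 1 for mTEChi and 4 for mTEClo. Among all 259773 merged regions, such regions made up 1.83% for mTEChi and 2.75% for mTEClo. The mTEChi region (chromosome 2, 74749342 to 74749793) had its midpoint 1296 bases from the end of Hoxd3, with scores of 3.19 and 7.77. An mTEClo region with its midpoint 421 bases from Hoxb8 (chromosome 11, 96278824 to 96279137) and an mTEClo region inside Hoxa3, with its midpoint 452 bases from Hoxa4 (chromosome 6, 52189065 to 52189395), each had scores of 8.63 and 4.93. Scores are coarse, and equal values recur across a list. The mTEClo region further inside Hoxa3 (chromosome 6, 52179482 to 52180071) had 4.09 and 2.2, and the score of 2.2 stood at percentile 0.616 of its list. Exon and intron classes were not assigned, since the annotation used here gives gene intervals only.

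The Hox promoter windows that could be matched carried no summit. Members without a matched window were not examined in this way. One of them, Hoxc10, had an mTEChi replicate 1 summit 188 bases from an end of its gene interval. RefSeq promoter windows, 250 bases before to 50 after a transcript start, were matched for 22 of 39 members, in 24 windows. In mTEChi 0 and 0 of the 24 held a summit, and in mTEClo 0 and 0. Among 21045 promoter windows of all protein-coding genes the share was 21.9% and 19% in mTEChi, against 25.3% and 18.1% in mTEClo, and 38.2% held a summit in at least 1 library. A count of 0 of 24 allows a share of up to 13.8% (95% Wilson interval, counting error only). The windows of neighbouring Hox genes share a locus and are not independent.

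At wider distances, too, the Hox shares were below the background. A summit lay within 1 kb of 1 and 2 of the 24 windows in mTEChi (4.17% and 8.33%), against 4 and 4 in mTEClo (16.7% each). The background was 36.9% and 34.9% in mTEChi, against 45.9% and 33.7% in mTEClo. Over all 39 members, with or without a matched promoter, 4 and 3 had a summit within 1 kb of an end of the gene in mTEChi, against 8 and 7 in mTEClo. For all protein-coding genes this was 37.4% and 37.4% in mTEChi, against 47.3% and 35.7% in mTEClo. Of the 96 Hox peaks, 53 lay inside a member and 24 (25.0%) within 1 kb of a member's end.

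Among the matched Hox promoter windows, the closest peak interval was at Hoxa10, a uterus and limb gene. Its summit, in mTEClo replicate 1 alone, was at chromosome 6, 52241105, with a score of 5.52, which lies 1 base upstream of the Hoxa10 sequence shown. At Hoxa3, the summit nearest to the transcript start lay 8625 and 882 bases away in mTEChi, against 1408 and 1229 bases in mTEClo. At Hoxa11 it lay 11254 and 7229 bases away in mTEChi, against 691 and 11377 bases in mTEClo. At Hoxd10 it lay 14116 and 13399 bases away in mTEChi, against 4586 and 4190 bases in mTEClo.

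In base composition the Hox windows resembled other promoters, with a median GC content of 57.7% against 56.7% for all protein-coding promoters and a median observed-to-expected CpG ratio of 0.626 against 0.574. The p53 half-site was found on either strand in 3 of 24 Hox windows (12.5%), those of Hoxa11, Hoxd4 and Hoxd10, against 7.37% of all windows. The spaced core CATGNNNNNNCATG, which lies within 2 adjoining half-sites, was found in 0 of 24 Hox windows, against 0.703% of all. Such a match is a description of the letters and not a bound site.

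**Figure D4:**
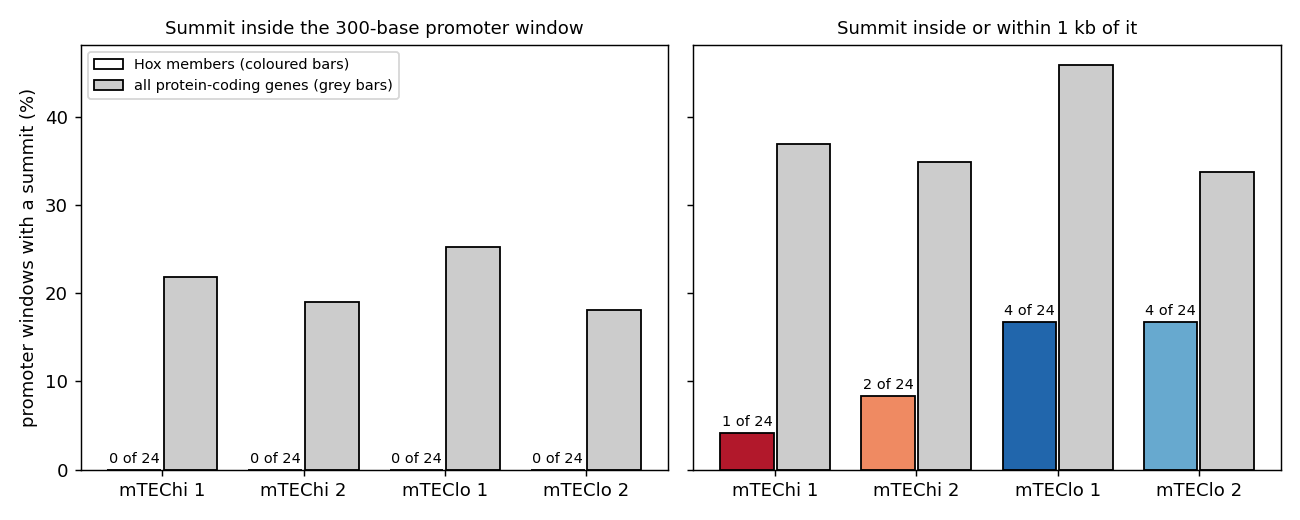
Share of promoter windows with a summit inside, and within 1 kb, for Hox genes and for all protein-coding genes in each library, with mTEChi left of mTEClo. Hox bars for a summit inside are at 0 in every library, against 21.9%, 19%, 25.3% and 18.1% of all windows.

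Genes whose proteins work with Hox factors or control the clusters were also counted, with no adjustment for their length, beside the background of 69.3% and 73% of all genes called in mTEChi, against 75.5% and 68.8% in mTEClo. Of 9 cofactor genes of the Pbx, Meis and Pknox families, whose proteins bind DNA together with Hox proteins, 8 and 9 were called in mTEChi, against 9 and 9 in mTEClo. Of 22 Trithorax and Polycomb genes, 19 and 21 were called in mTEChi, against 22 and 17 in mTEClo. Promoter windows were matched for 17 of these genes, in 22 windows, so some genes had more than 1. Summits lay in 13 and 11 of the 22 windows in mTEChi, against 14 and 9 in mTEClo. The background was 21.9% and 19% of windows in mTEChi, against 25.3% and 18.1% in mTEClo. Men1 and the Polycomb genes Cbx7, Phc2 and Suz12 held a promoter summit in all 4 libraries. Of 9 retinoic acid and Cdx genes, which act upstream of the clusters in the embryo, 8 and 6 were called in mTEChi, against 7 and 7 in mTEClo, near the background. Promoter summits lay in 2 and 1 of their 12 windows in mTEChi, against 2 and 2 in mTEClo. For the cofactors it was 0 and 0 of 5 windows in mTEChi, against 1 and 1 in mTEClo.

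Of 8 pharyngeal pouch genes of thymus formation, which act beside Hoxa3, 8 and 8 were called in mTEChi, against 7 and 7 in mTEClo. Promoter summits lay in 2 and 1 of the 8 windows matched for 6 of these genes in mTEChi, against 1 and 2 in mTEClo. All of these were at Six4, which held one in all 4 libraries. The 5 ParaHox and Evx genes, the closest homeobox relatives of the Hox family, had 0 and 3 members called in mTEChi, against 5 and 2 in mTEClo. Of these genes, 0 were called in all 4 libraries, against a background of 51.9% of all protein-coding genes. Their promoters held 0 and 0 summits in mTEChi, against 1 and 0 in mTEClo. Among the tandem arrays, 33 of 55 protocadherins (60.0%) were called in all 4 libraries, many of them through the long intervals they share. Of 287 olfactory receptors, 0 were. The same background of 51.9% applies to both.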

How the data were processed

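Each of the 4 libraries had 1 deposited peak list, so replicates were not pooled. The submitters' processing notes name MACS2 2.2.7.1, SAMtools 1.9, Bowtie2 2.2.9, Picard and mm10; settings, and whether a control was used, were not given in the sources used here for these lists. The deposited intervals are 301 bases wide, a summit with 150 on each side. The deposited score is taken to be a −log10 p-value or q-value (not stated which) and has a minimum of 2.00, a limit of 0.01. It was used to rank and filter within 1 list. Read depth is unknown from peak lists, and no control library was analysed here.

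Coordinates are mm10, counted from 1. Groups and replicate numbers came from the titles. Genes and promoter windows came from RefSeq tables (GRCm38.p6) without exons; chromosome Y, on which no list had peaks, was left out, and lists had few peaks on X (228 to 755). Intervals sharing at least 1 base were merged into regions. A two-sided exact permutation test compared values per library; lists were given as counts beside the background. Named members were Hoxa3, those called in all 4 libraries, in 1 state alone or in none; Hoxa11 and the group 3 paralogs were described after their values were seen. A member that the rule names is not reported by name here and stays in the counts. The members and lists were chosen with earlier results of these data known. Alternatives were peaks above the median score, the 10000 highest, equal list lengths, other windows, each library left out and a replicate block. Same-numbered libraries deviated from their group means with a correlation of -0.138 over 21631 genes. Counting steps were tested on simulated data. Scripts ran in Python 3.11.15 with scipy 1.17.1, pandas 2.3.3, numpy 2.4.6 and, for figures, matplotlib 3.10.9.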

Additional observations from a re-analysis of the deposited data

How the results depend on the processing

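The Hox share of listed peaks was lower in mTEChi under all 12 alternatives that could change it, by mean differences between -2.23 and -0.267 per 10000, and under those that left out 1 library in turn between -1.35 and -1.17. Among the 10000 highest scores the lists held 1 and 1 Hox peaks in mTEChi, against 2 and 1 in mTEClo, so the groups overlapped there (exact permutation p = 1). No result reversed. With the replicate number as a block the difference is by construction -1.26 (exact permutation p = 0.5, the smallest it can give), and the crossed pairing, added after seeing the data, also gave p = 0.5. Without Hoxa the difference in peaks per list was -2. Counts of members called moved most with the window and the score limit. Members called in all 4 libraries numbered 2 above the median score, 0 among the 10000 highest scores, 3 in the gene interval alone, 4 within 1 kb and 20 within 10 kb. In the same order, those called in both mTEChi libraries numbered 4, 0, 4, 5 and 23, and 9 when each peak counted for its nearest member alone. Those called in both mTEClo libraries numbered 10, 0, 6, 10 and 30. Members called in mTEChi alone numbered 1, 0, 0, 1 and 0. Members called in mTEClo alone numbered 0 among the 10000 highest scores, 2 in the interval alone and 3 within 10 kb. Merged Hox regions present in every library left numbered 0 to 2 with 1 library left out, where fewer libraries have to share a region: 1 without mTEChi replicate 2 and 2 without mTEClo replicate 2. Promoter windows numbered 1 when any base of the interval counted and 10 when a summit within 1 kb counted. Of the calls of the 23 members that meet the naming rule, under 12 alternatives, 191 were unchanged or changed little and 85 moved further. Beyond the window or score limit that defines each of these counts, the cause was not tested. Peak lists carry no read counts, so depth limits what an absent peak means: not detected at an unknown depth. With 2 libraries a group, no test here can pass 0.05.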

Other observations

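The Hox clusters also hold non-coding genes, which the members do not include, and some of them lie where the peaks are. These were picked after their values were seen. Inside LOC115490409, a long non-coding RNA gene within the Hoxa3 interval, there were 0 and 0 summits in mTEChi, against 3 and 4 in mTEClo. The shorter 5730596B20Rik within LOC115490409 had 0 and 0 in mTEChi, against 2 and 2 in mTEClo. These last stood at percentiles 39.2 and 2.44 in mTEClo replicate 1 and 28.6 and 0.616 in mTEClo replicate 2. All these summits were already counted for Hoxa3. How often other non-coding genes split in this way was not counted. Haglr, between Hoxd3 and Hoxd1, had 3 and 1 in mTEChi, against 2 and 1 in mTEClo. Hotair, in the Hoxc cluster, had no summit inside in any library, the nearest being 18662 and 14671 bases away in mTEChi, against 430 and 391 bases in mTEClo. The microRNA gene Mir196a-1, near Hoxb9, had a summit 25 bases away in mTEClo replicate 1, with none closer than 1391 bases in mTEChi replicate 1, 9128 bases in mTEChi replicate 2 and 4871 bases in mTEClo replicate 2.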
